A study of Mus musculus with 15 samples.

Results

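Basal cells of the mouse mammary gland were compared with luminal progenitors on 6 of the 15 arrays of a series on mammary epithelial subsets. These were the 3 arrays of the basal fraction enriched for stem cells (MaSC) and the 3 of the luminal progenitor fraction (LP), chosen by the titles of the samples. Both fractions came from wildtype C57BL/6 females that were adult virgin animals. They were isolated by flow cytometry from each of 3 suspensions prepared from thoracic and inguinal glands, after cells positive for CD31, CD45 or TER119 (the lineage antibodies, Lin) had been gated out. The MaSC gate was Lin-CD24+CD29hi and the LP gate Lin-CD24hiCD29+CD61+. Mature luminal cells (ML, CD61 negative, 3 arrays from the same suspensions) are given beside them where their level places a gene. The other 6 arrays were of cells marked by Wap-Cre;R26Y in C57BL/6 females, 3 of alveolar luminal cells at midgestation and 3 of alveolar luminal stem/progenitor cells of adult virgin animals. They entered the filter on low values and the estimate of the spread between arrays, which changed some calls, and they are not described further. RNA was amplified with the NuGEN Ovation V2 system and hybridised to Affymetrix whole-genome mouse arrays. Values are intensities normalised by the authors with dChip. One probe set stood for each gene, so levels are compared between arrays for one gene and never between genes. The sorted MaSC fraction is a gate that holds mostly myoepithelial cells together with a minority of stem cells, and the arrays report their mean.

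The ducts of the mammary gland have an inner layer of luminal cells and an outer basal layer of myoepithelial cells. The myoepithelial cells contract under oxytocin and rest on the basement membrane. Milk is secreted by alveolar luminal cells, which emerge during pregnancy. Cells that rebuild a gland on transplantation are enriched in the basal gate. Luminal progenitors are the clonogenic cells of the inner layer, express few hormone receptors and are known for high Elf5, Kit and CD14. Basal and luminal cells signal to each other, among other routes through Wnt ligands and through Notch ligands and receptors on neighbouring cells.

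The labels were set beside lists of marker genes. Of the 21 measured basal markers 17 were higher in MaSC and 0 in LP, with a median log2 difference of 3.35, and of the 23 measured LP markers 19 were higher in LP and 0 in MaSC, with a median of -1.21. The summed intensity of the basal list ran from 102982 to 117068 on the MaSC arrays, from 27680 to 31522 on the LP arrays and from 13127 to 17706 on the ML arrays. The sum of the LP markers ran from 74489 to 106669 in MaSC, from 150366 to 157628 in LP and from 77736 to 91820 in ML. Over all genes tested, 15.8% were higher in MaSC and 23.1% in LP. The markers went with both labels. The lists were chosen with earlier results of these data known, and the LP list holds Itgb3, the gene of CD61 in the LP gate. The counts are therefore no independent check of the labels. The MaSC arrays were not alike in luminal genes. MaSC replicate 1 held the highest MaSC value for 19 of the 22 luminal epithelial genes and 15 of the 18 genes of hormone-sensing cells, and MaSC replicate 3 the lowest for 19 and 17. The luminal sum was 152147, 131026 and 108012 on MaSC replicates 1, 2 and 3 against 176433 to 182657 in LP. Fibroblast markers were present in both fractions and uneven within LP. The sum of 29 measured genes ran from 52680 to 60011 in MaSC, from 78489 to 117015 in LP and from 15028 to 22360 in ML, 19 of the 29 were higher in LP and 2 in MaSC, and LP replicate 3 was the lowest LP array for 27. Of the genes of the lineage proteins, Pecam1 (CD31) lay between 12.6 and 32.2 and Ptprc (CD45) between 14.8 and 27.4 on the 6 arrays. Both stayed under the filter on low values, as did Cdh5 of endothelial cells (20.3 to 33.0) and Adipoq of adipocytes (21.4 to 49.6). Of the other cell types, 2 of 9 measured pericyte genes were higher in MaSC and 4 in LP, 1 and 2 of 12 endothelial, 0 and 1 of 11 leukocyte and 0 and 3 of 4 adipocyte genes. The pericyte sum ran from 8213 to 11991 in MaSC and from 13347 to 15246 in LP, and the endothelial sum from 1184 to 1725 in MaSC and from 1305 to 1864 in LP. Tek, an endothelial receptor, had the largest difference among the 12 endothelial genes, at 13.6, 20.9 and 14.1 on the MaSC arrays against 425, 845 and 361 on the LP arrays (log2 difference -4.99 ± 0.69, adjusted p = 0.000222). The leukocyte sum ran from 3390 to 6318 in MaSC and from 2477 to 4616 in LP, and its genes Cd74 and H2-Ab1 encode proteins of antigen presentation. Cd74 was at 935, 2164 and 1827 on the MaSC arrays against 196, 712 and 391 on the LP arrays (adjusted p = 0.0527) and H2-Ab1 at 832, 1305 and 1453 on the MaSC arrays against 389, 727 and 554 on the LP arrays (adjusted p = 0.166). Neither passed, although their arrays did not overlap, and both passed toward MaSC with the 6 arrays alone (0.0368 and 0.0399). The adipocyte sum ran from 632 to 1995 in MaSC, from 5252 to 7787 in LP and from 773 to 7487 in ML. Within it, Lpl, lipoprotein lipase, was at 1263, 47.6 and 71.1 on the MaSC arrays against 4571, 2624 and 2084 on the LP arrays (adjusted p = 0.082, and 0.0288 without MaSC replicate 1). Fabp4, a fatty acid carrier, was at 100.1, 389.9 and 157 on the MaSC arrays against 1023, 418 and 675 on the LP arrays (log2 difference -1.85 ± 0.49, adjusted p = 0.0103), a call lost with the 6 arrays alone (0.0557), and Cidea, a lipid droplet protein, was 6.12-fold higher in LP. None of the marker genes was at 0 on any of the 6 arrays. In sorted fractions, fewer cells of a type and less RNA per cell cannot be told apart, and the part of fibroblast, leukocyte or adipocyte RNA or of luminal cells in the results below was not tested beyond the values printed with them.

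**Figure D1:**
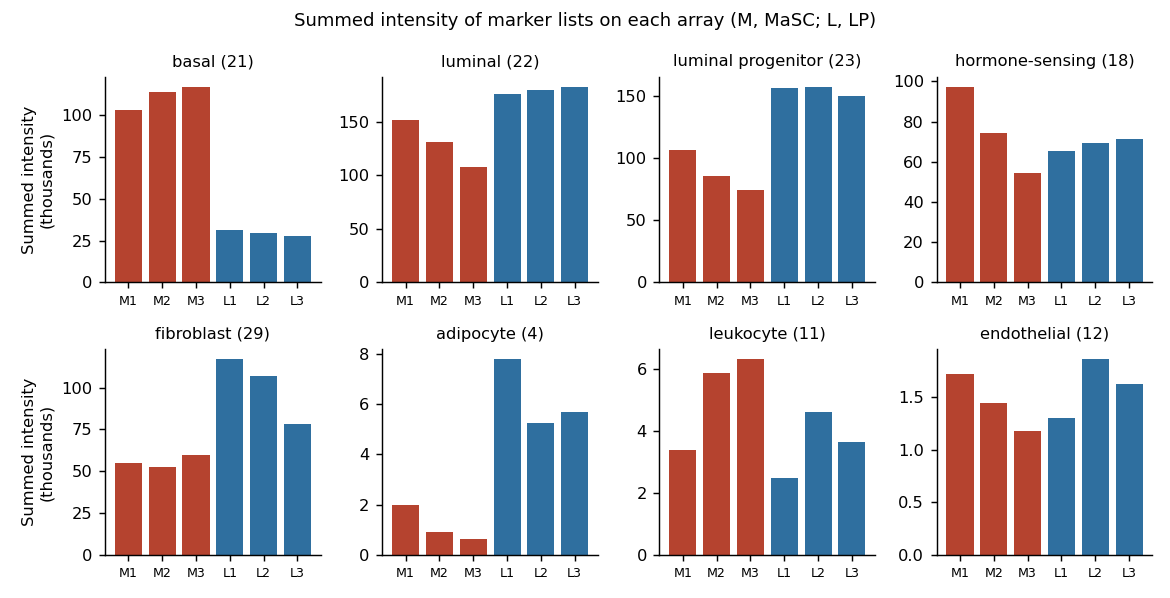
Summed intensity (vertical axis, in the unit printed beside it) of 8 marker lists, with the number of genes measured in brackets, as 1 bar for each MaSC array (M, red) and each LP array (L, blue), with a separate scale per list. The basal sum is higher on all MaSC arrays (102982 to 117068) than on LP arrays (27680 to 31522), the luminal sum differs among the MaSC arrays (108012 to 152147), and the fibroblast sum is higher in LP (78489 to 117015) and lowest there on replicate 3.

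Basal cells and luminal progenitors differed in a large share of the genes tested, and the largest differences were toward basal cells. Of 12143 genes, 4727 passed at an adjusted p under 0.05 (limma, Benjamini-Hochberg), 1919 higher in MaSC (15.8% of those tested) and 2808 higher in LP (23.1%). At least 2-fold differences were nearly balanced, with 1035 genes for MaSC and 1097 for LP. At 10-fold the numbers were 238 and 87, and at 100-fold 18 and 1, the single gene being Pi16. MaSC and LP arrays did not overlap for 6557 genes, or 54% of those tested. The median log2 difference over all genes, MaSC minus LP throughout, was -0.07. Arrays of one fraction correlated at 0.943 to 0.973 (MaSC) and 0.976 to 0.986 (LP, Pearson's r across genes, which are not independent replicates), and MaSC with LP arrays at 0.806 to 0.86. The MaSC arrays were the more variable group, with a median SD of 0.221 on the log2 scale against 0.131. With 3 arrays per fraction, the p-values reflect how far these samples spread and no wider source of variation, and some calls depended on single arrays. With 1 array left out, 1547 to 1766 genes were higher in MaSC and 2114 to 3021 in LP. Leaving out MaSC replicate 3 left 895 genes at least 2-fold higher in LP, and leaving out MaSC replicate 1 gave 1391.

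**Figure D2:**
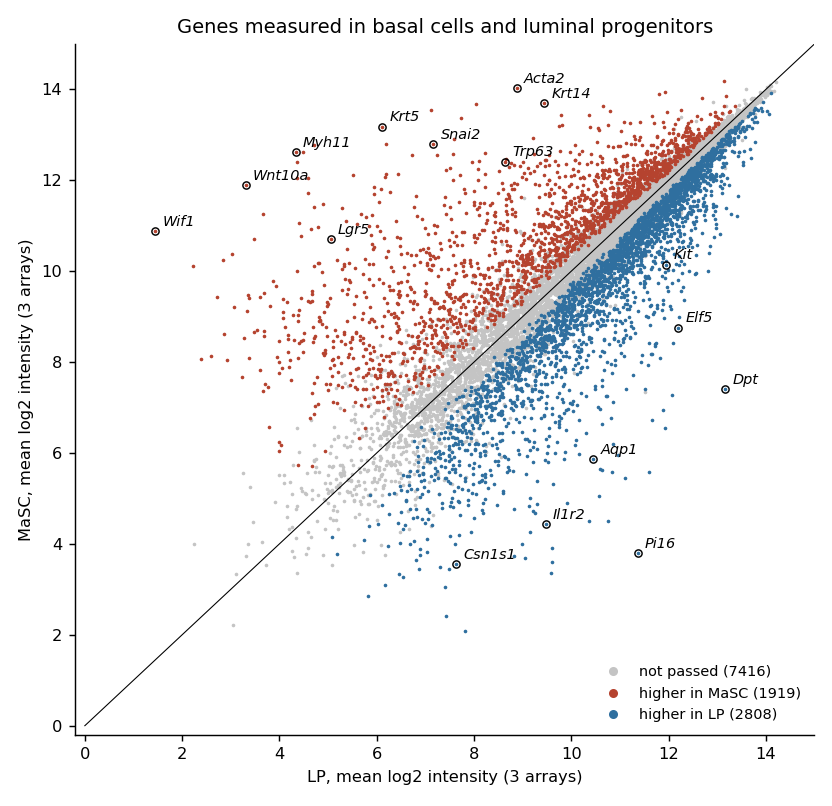
Mean log2 intensity over 3 arrays of each of 12143 genes in LP (horizontal) and MaSC (vertical), 1 point per gene, red where higher in MaSC, blue where higher in LP and grey where not passed, with the line of equal level. The 1919 genes higher in MaSC reach farther from that line than the 2808 higher in LP, with 238 against 87 beyond 10-fold.

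The genes with the largest differences toward MaSC were dim in LP, which here means under the medians of the 6 arrays (152.2 to 170.8). Wif1, a secreted protein that binds Wnt ligands, measured 2352, 2019 and 1409 on the MaSC arrays against 6.76, 1.08 and 2.80 on the LP arrays (log2 difference 9.43 ± 1.25, adjusted p = 0.000178). Wnt10a, a Wnt ligand, measured 3259.5, 3610.0 and 4663 on the MaSC arrays against 25.3, 4.54 and 8.38 on the LP arrays (log2 difference 8.59 ± 0.88, adjusted p = 3.94e-05). All MaSC arrays were bright for both and all LP arrays dim, and ML lay with LP (0.918 to 18.8 and 9.24 to 29.3). Myh11, the smooth muscle myosin heavy chain, gave 5995, 6484 and 6384 on the MaSC arrays against 18.3, 19 and 23.4 on the LP arrays (log2 difference 8.29 ± 0.80, adjusted p = 2.78e-05). Cnn1, the actin-binding protein calponin, gave 5775, 6071 and 7269.8 on the MaSC arrays against 19.3, 19.4 and 29.6 on the LP arrays (log2 difference 8.15 ± 0.95, adjusted p = 8.43e-05). These genes of contractile proteins were bright in one fraction and dim in the other. The collagen-binding proteoglycan Fmod (5706, 6236 and 9755 against 24.9, 13.4 and 52.6) and Col17a1, a collagen of hemidesmosomes (4851, 5262 and 6118 against 18.7, 13.1 and 35.6), were of the same kind. The remaining genes of the 12 were Rgs4, a regulator of G protein signalling, the neuronal adhesion protein Cntn2, the homeobox gene Irx4, the potassium channel gene Kcnq5, Gprin3 and the matrix gene Hmcn1, with log2 differences from 7.25 (Hmcn1) to 7.88 (Rgs4). In all 12 genes the highest LP value was 52.6 (Fmod) and the lowest MaSC value 882 (Gprin3). Folds against such low intensities depend on the floor: with every value under 32 raised to 32, the 12 folds ran from 34.5 to 198 and all 12 still passed. Of the 238 genes at least 10-fold higher in MaSC, 229 were also higher in MaSC than in ML, 195 of them at least 10-fold.

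**Figure D3:**
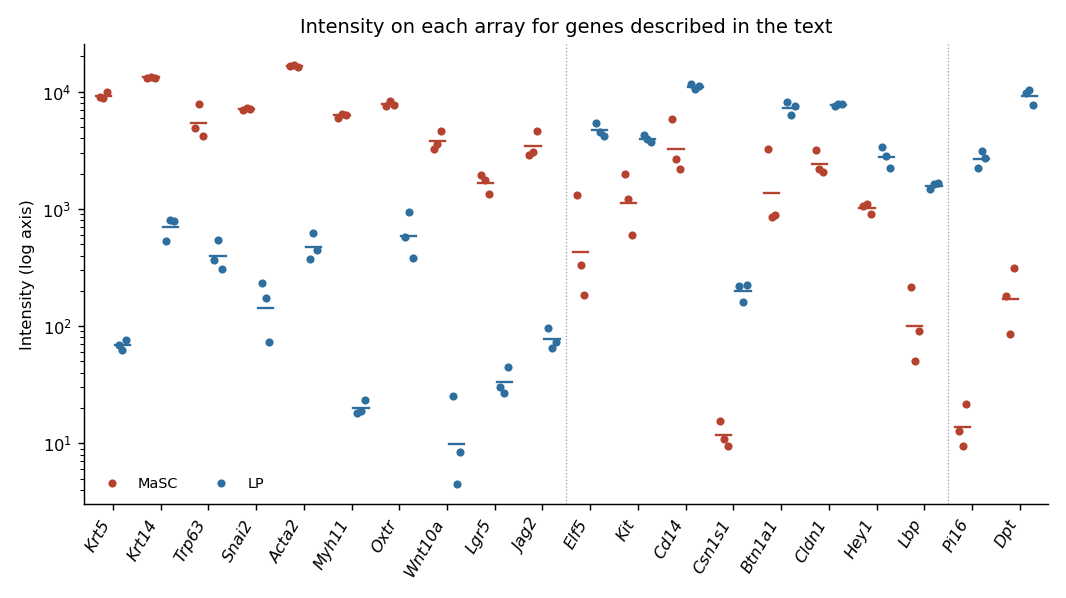
Intensity (vertical, log axis) of 20 genes on each of the 3 MaSC (red) and 3 LP (blue) arrays, 1 point per array, with a line at the mean of the log2 values; dotted lines part genes higher in MaSC (left), higher in LP (middle) and 2 of the largest LP genes (right). MaSC and LP points do not overlap in any of the genes, for example Krt5 at 9061, 8894 and 9884 in MaSC against 69.6, 62.8 and 76.7 in LP.

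On the probe set that stood for each gene, genes for the surface proteins that define the gates differed by less than 2-fold between the fractions. Itgb1, which encodes CD29, measured 3337, 4012 and 4047 on the MaSC arrays against 2743, 2862 and 2794 on the LP arrays (log2 difference 0.43 ± 0.10, adjusted p = 0.00443), so every MaSC array stood above every LP array, with a mean ratio of 1.35. All 4 probe sets of Itgb1 above the filter pointed toward MaSC, with log2 differences from 0.43 (the one used) to 1.11, which is beyond 2-fold. Itgb3, which encodes CD61, was lower in MaSC at 2209, 1385 and 2217 on the MaSC arrays against 3343, 3209 and 2794 on the LP arrays (log2 difference -0.71 ± 0.22, adjusted p = 0.0218). It was far lower in ML, at 95.5 to 145 (4.79 for LP minus ML on the log2 scale). The MaSC to LP difference in Itgb3 lost its call without MaSC replicate 2 (adjusted p = 0.0874), LP replicate 1 (0.0683) or LP replicate 2 (0.062). Cd24a gave 15054, 14591 and 12908 on the MaSC arrays against 12767, 13261 and 13561 on the LP arrays, and the fractions overlapped (log2 difference 0.10 ± 0.08, adjusted p = 0.316). The progenitor surface genes Kit, a receptor tyrosine kinase (1980.3, 1227 and 598 in MaSC against 4265, 3966 and 3706 in LP), and Cd14, a co-receptor for lipopolysaccharide (5855, 2683 and 2176 against 11527, 10627 and 11084), were 3.51-fold and 3.41-fold higher in LP. In the methods' t-test on the 6 arrays, a two-sample test of each gene by itself, Kit (adjusted p = 0.0699), Cd14 (0.0544) and Itgb3 (0.0998) did not pass. MaSC replicate 1 was the highest MaSC array for both, with a Kit level above the ML range (1255 to 1783).

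Keratins, the intermediate filament proteins of epithelia, split by layer. Of the 17 measured, 6 were higher in MaSC and 4 in LP (median log2 difference 0.03), beside 15.8% and 23.1% of all genes. Krt5, a keratin of basal layers, measured 9061, 8894 and 9884 on the MaSC arrays against 69.6, 62.8 and 76.7 on the LP arrays (log2 difference 7.06 ± 0.69, adjusted p = 2.92e-05). Krt14, its partner, measured 13199, 13476 and 13007 on the MaSC arrays against 535, 798 and 789 on the LP arrays (log2 difference 4.25 ± 0.57, adjusted p = 0.000191). Krt15 (4883, 6222 and 7162 against 151, 125 and 182) and Krt17 (11449, 11755 and 11985 against 2065, 2060.4 and 1351) were also higher in MaSC, and none of the 4 overlapped between fractions. The luminal keratins Krt8 and Krt18 were bright in both fractions. Krt18 lay at 16298, 15714 and 14294 in MaSC and 17410.0, 17907 and 17652 in LP, a difference of -0.20 on the log2 scale (adjusted p = 0.0332), and Krt8 at 14254, 12949.5 and 13366 in MaSC and 15279, 16476 and 15754 in LP, a difference of -0.23 (adjusted p = 0.0175). Both small differences depended on the processing. The call for Krt8 was lost without MaSC replicate 2 (0.0614) or LP replicate 2 (0.0732), with the 6 arrays alone (0.0915), under a replicate block (0.0992) and after centring the arrays on their medians (0.123). The call for Krt18 was lost under the same 3 settings (0.141, 0.149 and 0.161), with the 9 virgin wildtype arrays (0.0815), after quantile normalisation (0.0664), with no filter (0.085) and in the methods' t-test (0.0771), and without MaSC replicate 2 (0.0526), MaSC replicate 3 (0.102) or any LP array (0.0658, 0.0962 and 0.08).

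Among 31 transcription factors and regulators measured, 8 were higher in MaSC and 8 in LP, beside 15.8% and 23.1% of all genes. Snai2, a zinc finger repressor of epithelial genes, measured 6976, 7298 and 7096 on the MaSC arrays against 235, 172 and 72.8 on the LP arrays (log2 difference 5.63 ± 0.61, adjusted p = 5.32e-05). Id4, an inhibitor of helix-loop-helix factors, measured 4976, 5533 and 5833 on the MaSC arrays against 212, 256 and 283 on the LP arrays (log2 difference 4.45 ± 0.49, adjusted p = 5.63e-05). Trp63, the master factor of stratified and basal epithelia, measured 4909, 7822 and 4169 on the MaSC arrays against 370.1, 546 and 309.6 on the LP arrays (log2 difference 3.77 ± 0.50, adjusted p = 0.00017). These 3 basal regulators showed wide separation. On the probe sets used, smaller differences in the same direction were found for Mef2c, a factor of muscle gene programs (5.56-fold), Tbx3 (2.26-fold), Bcl11b (1.86-fold) and Runx1, the factor examined in the study (1.85-fold). Tbx3 was low in LP alone of the 3 virgin fractions, with ML at 4415 to 5031 around the MaSC arrays (4502, 4485 and 4526). The size for Bcl11b depended on the probe set, with log2 differences from 0.89 (the one used) to 6.32 over its 4 probe sets above the filter. Runx1 intensities were 5859, 6306 and 6725 on the MaSC arrays against 3127, 3443 and 3621 on the LP arrays (log2 difference 0.89 ± 0.13, adjusted p = 0.000382), with ML between them at 4392 to 5385. On the LP side, Elf5, the factor that directs alveolar differentiation, measured 1325, 330.3 and 184 on the MaSC arrays against 5419, 4534 and 4212 on the LP arrays (log2 difference -3.44 ± 0.52, adjusted p = 0.0004). MaSC replicate 1 was the highest MaSC array for Elf5 and lay inside the ML range (951 to 1484). The related factors Ehf (4009, 2765 and 696 in MaSC against 8609, 8219.6 and 7241 in LP, which did not pass with the 6 arrays alone, adjusted p = 0.0604) and Elf3 (1093, 593 and 453 against 1361, 1417 and 1681), Bcl11a (220.0, 164 and 237 against 421, 309 and 344) and the Notch-regulated repressor Hey1 (1049, 1095 and 906 against 3409, 2809 and 2227) were also higher in LP. In the methods' t-test, Elf5 (adjusted p = 0.0551), Ehf (0.13), Elf3 (0.101) and Bcl11a (0.0615) did not pass. Gata3, required for luminal fate, was at 5224, 5413 and 5369.7 in MaSC and 4638, 4692 and 5315 in LP (adjusted p = 0.3). The hormone receptors did not pass either, on all 6 arrays. Esr1 lay at 6683, 5090.2 and 2779 in MaSC and 3161, 4389 and 4201 in LP, and Pgr at 5376, 3853 and 1343 in MaSC and 1739, 2249 and 1952 in LP. Their pioneer factor Foxa1 was at 4731, 3211 and 981 in MaSC and 3221, 3346 and 4406 in LP. For each of these, MaSC replicate 1 was the highest MaSC array and replicate 3 the lowest, as in the luminal sum, and ML was above all 6 arrays (9517 to 10900.1 for Esr1, 7953 to 9109 for Pgr, 7255 to 7949 for Foxa1). Without MaSC replicate 3, Pgr passed toward MaSC (adjusted p = 0.00166), and without MaSC replicate 1, Foxa1 passed toward LP (0.0486).

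Genes of the smooth muscle apparatus were more often higher in MaSC than in LP. Of 36 measured, 20 were higher in MaSC and 3 in LP, beside 15.8% and 23.1% of all genes. The median log2 difference was 1.18 beside -0.07 over all genes. The promoter sequences of 4 members are shown because serum response factor, the main regulator of contractile genes, binds the CArG box, and because a match to it stood in promoters of both directions. Each is the 250 bases before a transcription start (RefSeq, GRCm38.p6), written 5′ to 3′ on the strand of the gene in lower case, with CArG box matches in capitals. Myl9 and Filip1l were higher in MaSC, and Myl6 and Ldb3 in LP.
Myl9 (chr2:156775214-156775463, plus strand): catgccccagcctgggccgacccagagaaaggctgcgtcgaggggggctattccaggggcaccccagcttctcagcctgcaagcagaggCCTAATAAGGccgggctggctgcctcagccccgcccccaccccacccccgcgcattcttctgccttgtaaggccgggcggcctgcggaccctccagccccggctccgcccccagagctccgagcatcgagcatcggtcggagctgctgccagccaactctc
Filip1l (chr16:57548992-57549241, plus strand): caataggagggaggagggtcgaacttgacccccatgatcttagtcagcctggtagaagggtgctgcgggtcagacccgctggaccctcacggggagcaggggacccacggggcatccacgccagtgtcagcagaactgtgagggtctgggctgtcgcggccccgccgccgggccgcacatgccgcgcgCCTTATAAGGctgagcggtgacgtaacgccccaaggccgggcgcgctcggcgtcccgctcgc
Myl6 (chr10:128493010-128493259, minus strand): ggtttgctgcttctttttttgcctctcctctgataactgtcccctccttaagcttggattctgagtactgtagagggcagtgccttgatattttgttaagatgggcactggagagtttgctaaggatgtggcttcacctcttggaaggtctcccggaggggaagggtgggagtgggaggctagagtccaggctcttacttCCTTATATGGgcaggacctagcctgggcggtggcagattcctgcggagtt
Ldb3 (chr14:34588682-34588931, minus strand): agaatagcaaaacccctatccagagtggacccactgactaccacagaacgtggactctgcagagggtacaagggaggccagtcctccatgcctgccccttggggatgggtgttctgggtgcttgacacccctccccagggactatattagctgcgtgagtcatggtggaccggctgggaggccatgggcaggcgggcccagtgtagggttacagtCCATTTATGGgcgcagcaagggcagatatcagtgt
The matches begin 161, 62, 50 and 35 bases before the start in this order. Both strands of 32851 windows of the same length were searched, and 482 (1.47%) held a match. Of the 31 list genes with a window 8 did (25.8%), among them 2 of the 17 that were higher in MaSC and both with a window among those higher in LP. A match is a description of these letters and not a binding site.

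Contractile proteins themselves were among the clearest differences. Acta2, smooth muscle actin, measured 16568, 16933 and 16364 on the MaSC arrays against 374, 626 and 448 on the LP arrays (log2 difference 5.14 ± 0.40, adjusted p = 9.13e-06). Actg2, the enteric smooth muscle actin, measured 6746, 6900.2 and 7672 on the MaSC arrays against 79.9, 67.8 and 73.6 on the LP arrays (log2 difference 6.59 ± 0.83, adjusted p = 0.000135). Mylk, the kinase that phosphorylates myosin light chain, measured 11719, 11946 and 12165 on the MaSC arrays against 131, 98.9 and 205 on the LP arrays (log2 difference 6.43 ± 0.45, adjusted p = 4.23e-06). No LP array came within 10-fold of a MaSC array for any of these. The regulatory light chain Myl9 was at 10137, 10234 and 11221 against 288, 206 and 162, Lmod1, which nucleates actin filaments, at 2139.9, 1747 and 2895 against 72.0, 108 and 78.1, and Tagln, the actin-bundling transgelin, at 12734, 13197 and 12309.9 against 1724, 2201 and 1090.3. Tagln and Myl9 were also higher in LP than in ML, by 2.50 and 2.10 on the log2 scale. Filip1l, which binds filamin, was at 2577, 2779 and 2558 in MaSC against 211, 273 and 336 in LP, with ML between (1306 to 1555). Against the trend of the list, Ldb3, a protein of the Z-disc, measured 144, 202 and 37.2 on the MaSC arrays against 878, 672 and 895 on the LP arrays (log2 difference -2.98 ± 0.50, adjusted p = 0.000788), and Myl6, the essential light chain that non-muscle myosin uses too, measured 2493, 2304 and 2844 on the MaSC arrays against 5164, 5433 and 5815 on the LP arrays (log2 difference -1.11 ± 0.15, adjusted p = 0.000185). The regulators of these genes moved apart as well. Srf, which encodes serum response factor, was 1.80-fold higher in LP (6178, 6683 and 6377 against 3751, 3526 and 3398 in MaSC), while its coactivator gene Mrtfa was 2.19-fold higher in MaSC (3272, 2610.0 and 4706 against 1521, 1512 and 1666).

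Receptors and channels that govern contraction followed the contractile proteins. Of 21 measured, 11 were higher in MaSC and 2 in LP (median log2 difference 1.13), beside 15.8% and 23.1% of all genes. Oxtr, the receptor for oxytocin, the hormone of milk ejection, measured 7505, 8393 and 7638 on the MaSC arrays against 577, 935 and 382 on the LP arrays (log2 difference 3.73 ± 0.56, adjusted p = 0.000371). Cacna1c, the pore of the L-type calcium channel, measured 1083, 1089 and 1303 on the MaSC arrays against 22.5, 38.2 and 24.5 on the LP arrays (log2 difference 5.39 ± 0.60, adjusted p = 6.25e-05). Kcnmb1, a subunit of the calcium-activated potassium channel of smooth muscle, was at 328, 501 and 499 against 13.7, 18.5 and 20.1. The LP and ML arrays were dim for both channel genes. Prkg1, the cGMP-dependent kinase of relaxation, was graded: 4404, 3909 and 4673 in MaSC, 782, 833 and 996 in LP and 46.0 to 99.5 in ML. The regulators of G protein signalling Rgs5 (19.6-fold) and Rgs2 (6.93-fold) were higher in MaSC, Rgs2 with ML above LP (1245 to 2708).

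Genes for attachment to the basement membrane were higher in basal cells, but not without exceptions. Of 22 integrin and adhesion genes, 11 were higher in MaSC and 5 in LP (median 0.55). Of 30 basement membrane genes 16 and 2 were (median 0.63), beside 15.8% and 23.1% of all genes. The laminin chains divided. Lama3, of the laminin of hemidesmosomes, measured 5431, 5864 and 7261 on the MaSC arrays against 569.8, 664 and 582 on the LP arrays (log2 difference 3.35 ± 0.24, adjusted p = 4.58e-06). Its partner Lamb3 (4365, 4405 and 6753 against 774, 666 and 486) and Lama1 (808, 788 and 1912 against 38.3, 39.1 and 70.2) went the same way. Lama2, the chain of mesenchymal and muscle laminin, went the other way at 112, 91.5 and 115 on the MaSC arrays against 1347, 1575 and 705 on the LP arrays (log2 difference -3.44 ± 0.57, adjusted p = 0.000739). Col7a1, the anchoring fibril collagen, was 17.5-fold higher in MaSC. Col4a1 and Col4a2, the chains of the basement membrane network, were graded. Col4a1 was at 9248, 9402 and 11297 in MaSC and 4003, 2509 and 2029 in LP, and Col4a2 at 9179, 8671 and 10858 in MaSC and 2676, 1582 and 1218 in LP, where LP replicate 3 was the lowest. ML arrays held far less of both, 278 to 515 and 71.3 to 150.3. The matricellular gene Smoc2 (518, 821 and 314 in LP, 107, 62.3 and 103 in MaSC) was the other basement membrane gene higher in LP. Fibroblast markers, higher in LP and lowest on LP replicate 3, moved with Lama2 and Smoc2 on these arrays (66.9 to 92.2 and 19.5 to 50.9 in ML), and their part was not tested. Without LP replicate 3 the list still had 16 members higher in MaSC.

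Among integrins, Itga1, the collagen receptor chain, was at 3148, 3720.1 and 3552 against 284, 271 and 220.0 (log2 difference 3.75 ± 0.54, adjusted p = 0.000291). Itga5, of the fibronectin receptor, measured 4822, 4852 and 7278 on the MaSC arrays against 876, 901 and 453 on the LP arrays (log2 difference 2.97 ± 0.54, adjusted p = 0.00126). Itga3 (2.13-fold) and Itgb4 (2.03-fold), which bind laminin, were higher in MaSC with smaller differences, and their arrays did not overlap. Itgb6, of an epithelial integrin that activates TGF-beta, was higher in LP (426, 622 and 509 against 177, 137 and 101). The focal adhesion genes Tns1 (4.68-fold) and Parva (1.36-fold) were higher in MaSC.

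Cell-cell junction genes differed by member. Of 25 adherens junction, desmosome and gap junction genes, 9 were higher in MaSC, 6 in LP and 10 did not pass (median 0.13). Shares over all genes were 15.8% and 23.1%, the second close to the part toward LP here. Cdh3, P-cadherin of basal layers, measured 363, 710.1 and 369 on the MaSC arrays against 32.1, 26.4 and 30.3 on the LP arrays (log2 difference 3.95 ± 0.27, adjusted p = 4.23e-06). Cdh13, the anchored T-cadherin, was at 2971, 3095 and 5139.9 in MaSC, 219, 663 and 392 in LP and 2683 to 3817 in ML, so that LP was below both. Gjb2, a connexin of luminal cells, measured 1384, 855 and 842 on the MaSC arrays against 4897, 5047 and 4858 on the LP arrays (log2 difference -2.30 ± 0.27, adjusted p = 9.04e-05). Pkp2, a plaque protein of desmosomes, was at 2093, 1083 and 484 against 5314, 5867 and 5213, again with MaSC replicate 1 highest in its group.

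The list of epithelial-mesenchymal transition held both mesenchymal and epithelial genes, so a division by direction was built into it. Of 26 measured genes 4 were higher in MaSC and 11 in LP, beside 15.8% and 23.1% of all genes. The median log2 difference was -0.47. The 11 include Ocln, the tight junction gene occludin (2.22-fold), and are therefore not a count of mesenchymal factors. Snai2 was higher in MaSC, as given above, and Cdh2, N-cadherin, was 2.35-fold higher there. The 2 probe sets of Cdh2 above the filter gave log2 differences of 1.23 (the one used) and 3.48. Zeb1, a repressor of E-cadherin, was higher in LP at 116, 166 and 78.9 on the MaSC arrays against 892, 858 and 437 on the LP arrays (log2 difference -2.59 ± 0.53, adjusted p = 0.00242). Twist1, a mesenchymal helix-loop-helix factor, measured 233, 175 and 209 on the MaSC arrays against 1066, 871 and 498 on the LP arrays (log2 difference -1.92 ± 0.54, adjusted p = 0.0151), with a call that was lost without LP replicate 1 (adjusted p = 0.0576). Twist2 was at 12.4, 3.44 and 1.76 against 327, 414 and 82.9, and Fn1, fibronectin, at 1002, 1048 and 792 against 2667, 3866 and 2406. LP replicate 3 was the lowest LP array for these 4 genes and for 27 of 29 fibroblast markers, and ML was dim for Twist1 (5.86 to 15.9) and Twist2 (2.19 to 4.77). The part of fibroblast RNA in them was not tested. Foxc1, a forkhead factor, varied less among the LP arrays (2852, 3108 and 2814 in LP, 1520.0, 1216 and 1362 in MaSC).

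Wnt pathway genes, from ligands to targets, were more often higher in MaSC than in LP. Of 30 ligand and receptor genes, 16 were higher in MaSC and 2 in LP (median log2 difference 0.49). Of 21 inhibitor and target genes 10 and 3 were (median 1.51), beside 15.8% and 23.1% of all genes. Without MaSC replicate 1 the first count was 13, and in the methods' t-test it was 11. Beside Wnt10a, Wnt11 measured 1425, 1065 and 1635 on the MaSC arrays against 77.3, 114 and 107 on the LP arrays (log2 difference 3.79 ± 0.37, adjusted p = 2.93e-05). Wnt5b, another ligand, went the opposite way at 2186, 2322 and 3394 on the MaSC arrays against 5015, 6102 and 6336 on the LP arrays (log2 difference -1.16 ± 0.22, adjusted p = 0.00169). All LP arrays exceeded all MaSC arrays, and ML was lower than both (743 to 977). Rspo1, which potentiates Wnt signals through Lgr receptors, was at 75, 44.9 and 92.1 in MaSC against 175, 271 and 375 in LP (adjusted p = 0.0163), a call lost without MaSC replicate 2 (0.0635) or LP replicate 3 (0.0631). Its receptor gene Lgr5 was in the other fraction, at 1963, 1762 and 1340.0 on the MaSC arrays against 30.2, 27.0 and 44.7 on the LP arrays (log2 difference 5.65 ± 0.37, adjusted p = 2.8e-06). The frizzled receptors Fzd9 (4.96-fold) and Fzd1 (2.09-fold) and the co-receptor Ryk (1.39-fold) were higher in MaSC. Wnt4, the ligand made by hormone-sensing cells under progesterone, was at 1108, 829.6 and 641 in MaSC, 161, 396 and 512 in LP and 2787 to 4005 in ML.

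Feedback genes and antagonists of the pathway stood with its ligands. Axin2, a target and inhibitor of beta-catenin signalling, measured 435, 671 and 415 on the MaSC arrays against 44.0, 104 and 47.7 on the LP arrays (log2 difference 3.04 ± 0.54, adjusted p = 0.00112). Nkd2, another feedback inhibitor, was at 322, 382 and 986 against 51.1, 55.1 and 49.7. The secreted antagonists Dkk3 (6091, 5176 and 6935 against 133, 124 and 72.9) and Sfrp1 (6143, 5710.4 and 7410.3 against 1013, 957 and 682) were separated by 56.7-fold and 7.33-fold, and Sfrp5 by 5.35-fold. Lef1, the partner of beta-catenin, was at 226, 298 and 131 against 36.5, 45.3 and 35.9 with no overlap, yet it did not pass in the fit of all 15 arrays (adjusted p = 0.0802). It passed with the 6 arrays alone (0.00385), with the 9 virgin wildtype arrays (0.00647), under a replicate block (0.021) and in the methods' t-test (0.0217). Tcf7l2, another partner, was 1.62-fold higher in LP, and Ccnd1, cyclin D1, 1.43-fold higher in LP.

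Notch genes divided by role: ligands in basal cells, receptors and targets in luminal progenitors. Of 21 genes 7 were higher in MaSC and 9 in LP (median log2 difference -0.08), beside 15.8% and 23.1% of all genes. Jag1 measured 10522, 11749.6 and 11022 on the MaSC arrays against 1099, 1573 and 1353 on the LP arrays (log2 difference 3.06 ± 0.26, adjusted p = 1.39e-05). Jag2 measured 2895, 3063 and 4627 on the MaSC arrays against 96.2, 65.2 and 73.3 on the LP arrays (log2 difference 5.48 ± 0.65, adjusted p = 9.04e-05). Dll1 measured 2312, 3533 and 1928 on the MaSC arrays against 192, 278 and 227 on the LP arrays (log2 difference 3.45 ± 0.51, adjusted p = 0.000332). The 3 ligands did not overlap between fractions, and ML was intermediate in Jag1 (4195 to 4449.6). Lfng, the glycosyltransferase that modifies Notch receptors, was also higher in MaSC (1792, 1254 and 886 against 102, 241 and 132), with ML at 1592 to 2537. The receptors had smaller fitted differences. Notch1 was at 4499, 3438 and 3943 in MaSC against 7033, 7269.7 and 7102 in LP (log2 difference -0.86 ± 0.11, adjusted p = 0.000162), and Notch2 at 6336, 6756 and 5666 against 8454, 8835 and 8798 (log2 difference -0.48 ± 0.09, adjusted p = 0.00208). Notch3 spread over 3886, 1683 and 896 in MaSC against 5195, 4775 and 5267 in LP (adjusted p = 0.00788), and with the 6 arrays alone in the fit it no longer passed (adjusted p = 0.0747). Targets of the pathway went with the receptors. Hey2, a transcriptional repressor, measured 154, 131 and 103 on the MaSC arrays against 747, 929 and 682 on the LP arrays (log2 difference -2.61 ± 0.40, adjusted p = 0.000456). Heyl, of the same family, measured 103, 37.2 and 76.1 on the MaSC arrays against 252, 284 and 361 on the LP arrays (log2 difference -2.16 ± 0.48, adjusted p = 0.00405). Dtx1, which regulates Notch in the cytoplasm and is induced by it, measured 126, 33.2 and 61.4 on the MaSC arrays against 576, 678 and 988 on the LP arrays (log2 difference -3.52 ± 0.45, adjusted p = 0.000149). For these 3 and for Hey1 all LP arrays exceeded all MaSC arrays and all ML arrays. Nrarp, a feedback target, was 1.43-fold higher in LP. Hes1, by contrast, was at 1393, 1559 and 628 in MaSC and 1652, 1665 and 1858 in LP and did not pass (adjusted p = 0.073) unless MaSC replicate 1 (0.0439) or MaSC replicate 2 (0.0218) was left out. Rbpj, the DNA-binding partner of the receptor, was 1.73-fold higher in MaSC.

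**Figure D4:**
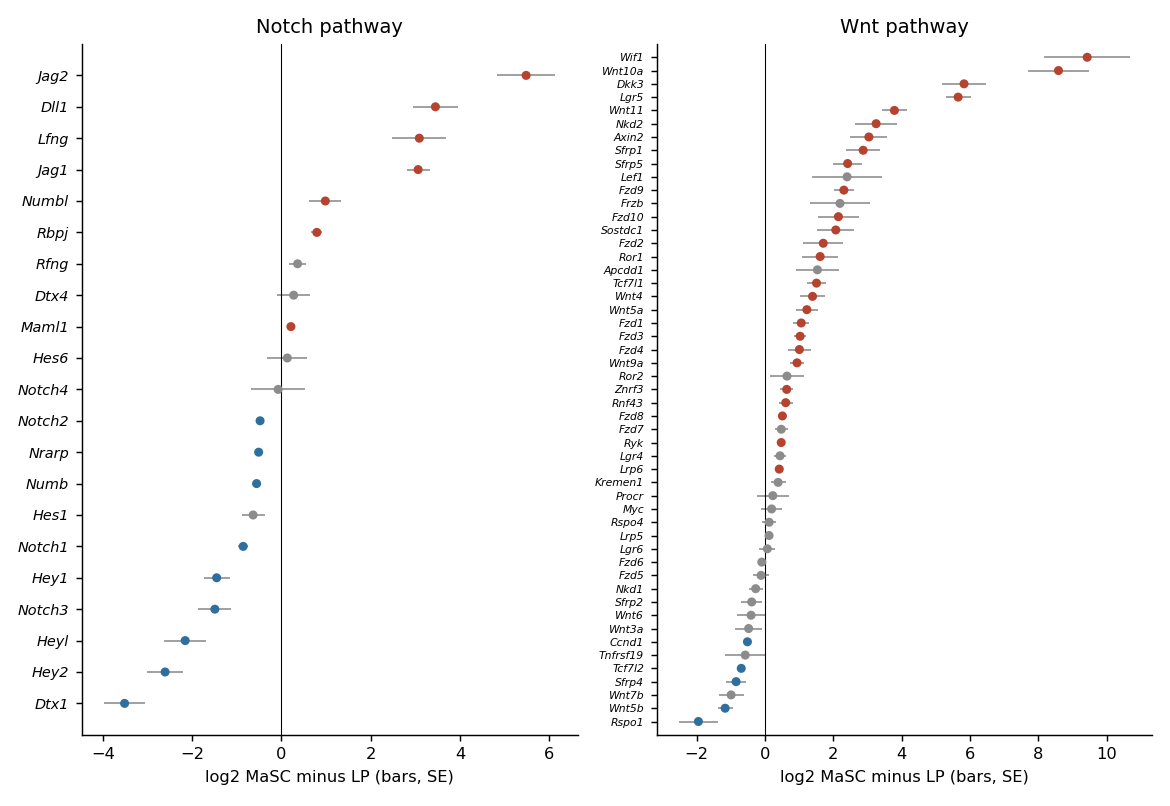
Log2 difference, MaSC minus LP, with its standard error for the measured Notch (left) and Wnt (right) genes, 1 point per gene, red where higher in MaSC, blue where higher in LP and grey where not passed. Jag1 (3.06), Jag2 (5.48) and Dll1 (3.45) lie on the MaSC side, Notch1 (-0.86), Hey2 (-2.61) and Dtx1 (-3.52) on the LP side.

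Growth factor genes of the FGF, TGF-beta and BMP, and IGF lists were more often higher in MaSC than in LP, and those of the EGF family were spread over both fractions. Over all genes the shares were 15.8% for MaSC and 23.1% for LP. Of 20 FGF pathway genes 8 were higher in MaSC and 1 in LP (median 0.17), of 35 TGF-beta and BMP genes 13 and 5 (median 0.26), of 15 IGF genes 5 and 2 (median 0.14) and of 15 EGF family genes 3 and 4 (median -0.06). The EGF receptor ligand Ereg measured 4516, 5582 and 6664 on the MaSC arrays against 691, 1034 and 743 on the LP arrays (log2 difference 2.77 ± 0.47, adjusted p = 0.000824). Among FGF genes, Etv4 (3.39-fold), a factor induced by FGF, and the inhibitor Spred2 (2.85-fold) were higher in MaSC. Fgfr2, the receptor required for duct growth, was at 9433, 9389 and 8543 in MaSC, 4074, 6055 and 6557 in LP and 10711 to 12023 in ML. BMP ligands were divided between the fractions. Bmp7 measured 1817, 2679 and 1557 on the MaSC arrays against 10.5, 39.1 and 38.3 on the LP arrays (log2 difference 6.29 ± 0.66, adjusted p = 4.61e-05). Bmp5 was lower in MaSC at 12.3, 8.36 and 8.83 on the MaSC arrays against 140.1, 103 and 56.6 on the LP arrays (log2 difference -3.27 ± 0.45, adjusted p = 0.000237). Bmp5 was dim, and with every value under 32 raised to 32 its fold was 2.92. Antagonists of the TGF-beta family, Fst (6.07-fold) and Fstl3 (6.38-fold), and Ltbp2 (2.95-fold) were higher in MaSC. Among IGF genes, the binding proteins Igfbp2 (2199.9, 3712 and 2369 against 37.9, 48.5 and 32.6) and Igfbp3 (9387, 9630.4 and 9594 against 1153, 1052 and 598) and Pappa, a protease that cleaves such proteins (1397, 1400.3 and 1936 against 38.7, 80.6 and 67.4), were higher in MaSC. Igf1 itself was higher in LP (849, 406 and 284 against 182, 119 and 107), and there too replicate 3 was the lowest array and replicate 1 the highest, as in the fibroblast sum (117015, 107074 and 78489 on LP replicates 1, 2 and 3).

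Guidance and adhesion cues first known from axons were more often higher in MaSC than in LP. Of 36 genes 14 were higher in MaSC and 3 in LP (median log2 difference 0.58), beside 15.8% and 23.1% of all genes. Ephb1, an ephrin receptor, measured 1797, 2315 and 2317 on the MaSC arrays against 15.1, 31.5 and 19.8 on the LP arrays (log2 difference 6.66 ± 0.50, adjusted p = 7.11e-06). Nrp2, a semaphorin co-receptor, was at 1845, 2055 and 1636 against 110.1, 149 and 197. The receptor Robo1 (3363, 3963 and 2802 against 529, 678 and 959, ML 2105 to 3016) and its ligand Slit2 (2363, 3128 and 3238 against 611, 184 and 189) were both higher in MaSC. Ntn1, netrin 1, was higher in LP at 2984, 1875 and 1688 on the MaSC arrays against 6016, 5963 and 5787 on the LP arrays (log2 difference -1.49 ± 0.19, adjusted p = 0.000162). Of 20 Hippo pathway genes 8 were higher in MaSC and 4 in LP (median 0.22). The phosphatase Ptpn14, which binds Yap, measured 5689, 5999.9 and 7162 on the MaSC arrays against 227, 329 and 354 on the LP arrays (log2 difference 4.39 ± 0.39, adjusted p = 1.78e-05), and Yap1 itself was 1.73-fold higher in MaSC. Its targets split, with Ccn2 1.61-fold higher in MaSC and Ccn1 1.77-fold higher in LP. Tead4, a DNA-binding partner of Yap, was at 100.1, 130.1 and 94.3 against 289.6, 505 and 684.

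Secreted signals of inflammation were divided by gene. Of 33 cytokine genes 10 were higher in MaSC and 7 in LP (median 0.26). The part toward LP was close to the 23.1% of all genes, with 15.8% of all genes toward MaSC. The chemokine Cxcl14 measured 13059, 13644 and 12541 on the MaSC arrays against 446, 233 and 179 on the LP arrays (log2 difference 5.62 ± 0.76, adjusted p = 0.000202). Within the cytokine family that signals through gp130, Il11 was higher in MaSC (2390.4, 2274 and 4940.1 against 344, 416 and 577), while Lif (8130.1, 8179 and 7774 in LP against 3811, 2580.0 and 2122) and Il6 (2223, 1730.4 and 1218 against 342, 79.2 and 131) were higher in LP. Il6 fell from LP replicate 1 to 3, as the fibroblast sum did (117015, 107074 and 78489), and the part of fibroblast RNA in it was not tested. Csf3 was 2.86-fold higher in LP. Hgf, hepatocyte growth factor, was 13.3-fold higher in MaSC at a low level (238, 253 and 441 against 27.7, 29.8 and 13.8).

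Known marker genes of luminal progenitors separated the fractions in the other direction, 19 of 23 as given above. Lbp, which carries lipopolysaccharide to CD14, measured 215, 50.6 and 91.2 on the MaSC arrays against 1473, 1617 and 1661 on the LP arrays (log2 difference -3.99 ± 0.42, adjusted p = 4.61e-05). Cyp24a1, which inactivates vitamin D, measured 84.1, 51.5 and 60.1 on the MaSC arrays against 904, 569 and 1052 on the LP arrays (log2 difference -3.67 ± 0.55, adjusted p = 0.000358). Tspan33, a tetraspanin, measured 909, 345 and 577 on the MaSC arrays against 3836, 4025 and 3419.7 on the LP arrays (log2 difference -2.73 ± 0.28, adjusted p = 4.15e-05). For all 3 the LP arrays stood above the MaSC and ML arrays (70.7 to 94.0, 44.7 to 78.8 and 620.0 to 817 in ML). Aldh1a3, a retinaldehyde dehydrogenase, was at 7603, 5598 and 3661 in MaSC against 11896, 12265 and 11258 in LP. General luminal genes differed by less, with a median of -0.55. Of 22 measured, 15 were higher in LP and 0 in MaSC, beside 23.1% and 15.8% of all genes. Muc1, the apical mucin, was 3.56-fold higher in LP, the claudin genes Cldn7 1.85-fold and Cldn4 3.07-fold, and the inhibitor Spint1 with its protease St14 1.93-fold and 2.09-fold. On MaSC replicates 1 to 3 Cldn4 stood at 2973, 1647 and 853, again highest on replicate 1 and lowest on replicate 3. The count of 15 became 11 without MaSC replicate 3 and 17 without MaSC replicate 1, and it was 6 when the 6 arrays alone entered the fit.

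Genes of milk were higher in luminal progenitors of these virgin animals. Of 17 measured, 14 were higher in LP and 0 in MaSC (median log2 difference -1.83), beside 23.1% and 15.8% of all genes. The promoter of Csn1s1, the casein with the largest difference, is shown because Stat5, the factor activated by prolactin, binds the motif TTCNNNGAA. It is the 250 bases before the start (RefSeq, GRCm38.p6), on the strand of the gene, 5′ to 3′, with the match in capitals.
Csn1s1 (chr5:87665958-87666207, plus strand): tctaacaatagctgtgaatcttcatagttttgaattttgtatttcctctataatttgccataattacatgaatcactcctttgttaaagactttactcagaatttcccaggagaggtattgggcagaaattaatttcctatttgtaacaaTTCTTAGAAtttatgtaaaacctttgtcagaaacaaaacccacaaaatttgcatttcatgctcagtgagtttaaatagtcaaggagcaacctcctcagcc
The match begins 100 bases before the start. The motif, which reads the same on both strands, was found in 2306 of the 32851 windows (7.02%) and in 3 of the 12 milk genes with a window (25%), among them 1 of the 9 that were higher in LP.
Csn1s1 measured 15.5, 11 and 9.52 on the MaSC arrays against 221, 160.1 and 222 on the LP arrays (log2 difference -4.08 ± 0.38, adjusted p = 2.46e-05). Lalba, alpha-lactalbumin, measured 9.12, 28.3 and 11.1 on the MaSC arrays against 91.7, 146 and 169 on the LP arrays (log2 difference -3.21 ± 0.51, adjusted p = 0.000579), and Wap, whey acidic protein, 20.8, 12.7 and 17.9 on the MaSC arrays against 82.5, 105 and 146 on the LP arrays (log2 difference -2.69 ± 0.35, adjusted p = 0.000158). These 3 were below 250 on each LP array, and dim on all MaSC and ML arrays. Wap was dim on all 3 LP arrays too, Lalba on 2 and Csn1s1 on 1. With every value under 32 raised to 32, the folds were 6.21 for Csn1s1, 4.1 for Lalba and 3.38 for Wap, and all 3 passed. They met the filter on low values only because arrays outside MaSC and LP were counted, and with the filter set on the 6 arrays they left it and 11 milk genes were higher in LP. Csn3, kappa-casein, was bright in both fractions at 13609, 11231 and 9381 on the MaSC arrays against 17323, 17052 and 16854 on the LP arrays (log2 difference -0.60 ± 0.12, adjusted p = 0.00265). The casein Csn1s2a was 3.19-fold higher in LP. Of the genes of fat globule release, Btn1a1, butyrophilin, was at 3275, 861 and 889 in MaSC, 8153, 6293 and 7498 in LP and 909.7 to 2014 in ML, so that MaSC replicate 1 lay above the ML range and replicates 2 and 3 below it. Xdh was at 2154, 1626 and 2416 in MaSC, 4408, 4582 and 4902 in LP and 609 to 927 in ML, with MaSC between the other two. The droplet coat gene Plin2 was at 7082, 5699 and 6504 in MaSC, 12056, 12349 and 11686 in LP and 4194 to 5663 in ML. Folr1, a folate-binding protein of milk, was 7.67-fold higher in LP. Of 15 genes of prolactin signalling 2 were higher in MaSC and 5 in LP (median -0.09). Stat5b was 2.61-fold higher in LP, Stat5a was at 5447, 5212 and 3917 in MaSC and 4566, 4854 and 4486 in LP (adjusted p = 0.755), and the inhibitor Socs3 was 1.83-fold higher in MaSC.

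Innate defence genes were more often higher in LP than in MaSC, as all genes tested were (23.1% against 15.8%). Of 32 measured, 2 were higher in MaSC and 11 in LP (median -0.62). Il1r2, the decoy receptor of interleukin 1, measured 50.3, 7.27 and 27.5 on the MaSC arrays against 889.5, 1015 and 399.8 on the LP arrays (log2 difference -5.04 ± 0.89, adjusted p = 0.00109). S100a8, a calcium-binding alarmin, measured 279, 259 and 339.8 on the MaSC arrays against 1909.6, 4259 and 3936 on the LP arrays (log2 difference -3.45 ± 0.50, adjusted p = 0.000324). Nfkbiz, a regulator of NF-kappaB, was 2.31-fold higher in LP. Slpi, a protease inhibitor of secretions, was the clearest exception at 15609.6, 16213 and 15252 on the MaSC arrays against 3073, 4613 and 4139 on the LP arrays (log2 difference 2.01 ± 0.36, adjusted p = 0.0012), with ML lowest (721 to 1694). Lcn2, lipocalin 2, was bright and close in both fractions (14974, 15114 and 14429 in MaSC, 16299, 16262 and 16133 in LP, adjusted p = 0.172), and Ltf, lactoferrin, did not pass (8955, 5429.6 and 2507 against 11079, 10162 and 6943, adjusted p = 0.101) except without MaSC replicate 1 (0.0163).

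Tight junction and polarity genes were more often higher in luminal progenitors. Of 29 measured, 15 were higher in LP and 3 in MaSC (median -0.51), beside 23.1% and 15.8% of all genes. Cldn23 measured 596, 342 and 252 on the MaSC arrays against 2095, 2246 and 2142 on the LP arrays (log2 difference -2.54 ± 0.32, adjusted p = 0.000135). Cldn1 was at 3164, 2185 and 2047 against 7515, 7913 and 7831, Marveld2, of tricellular contacts, at 2332, 1609.8 and 1044 against 5276, 5322 and 6068, Marveld3 at 596, 367 and 227 against 1658, 1912 and 2098 and Ocln, occludin, at 2692, 2004 and 1369.7 against 4099, 4331 and 4564. MaSC replicate 1 was the highest MaSC array for 20 of the 29 genes, and without that array the count was again 15. Polarity scaffold genes of one family went opposite ways: Pard6b was 2.96-fold higher in LP, and Pard6g 10.4-fold higher in MaSC (4575, 5161 and 5636 against 516, 582 and 392). Of 23 genes of ion and water transport 6 were higher in MaSC and 9 in LP. The water channel Aqp1 measured 97.9, 32.8 and 62.3 on the MaSC arrays against 919.8, 1491 and 1999 on the LP arrays (log2 difference -4.58 ± 0.51, adjusted p = 5.95e-05). Kcnn4, a calcium-activated potassium channel, was 4.08-fold, the sodium channel subunit Scnn1b 6.73-fold and Kcnq1 5.03-fold higher in LP.

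Of the 12 largest differences toward LP, 5 were in genes of the fibroblast list (Pi16, Lum, Dpt, Fap and Clec3b). Pi16, a peptidase inhibitor, measured 12.8, 9.49 and 21.8 on the MaSC arrays against 2218, 3101 and 2695 on the LP arrays (log2 difference -7.58 ± 0.57, adjusted p = 6.66e-06). The phospholipase gene Pla1a measured 38.4, 18.3 and 16.5 on the MaSC arrays against 2250.5, 2711 and 853 on the LP arrays (log2 difference -6.26 ± 0.75, adjusted p = 9.39e-05), and Ifi204, an interferon-inducible gene, 23.7, 6.13 and 7.39 on the MaSC arrays against 1051, 914 and 469.9 on the LP arrays (log2 difference -6.23 ± 0.64, adjusted p = 4.15e-05). In ML these genes were at 13.4 to 14.2, 15.9 to 21.4 and 23.5 to 36.1. The matrix genes Lum (61.2, 21.7 and 83.7 in MaSC, 4095, 3316 and 2231 in LP), Aspn (7.36, 8.10 and 29.5 in MaSC, 719.6, 1055 and 625 in LP) and Dpt (181, 85.5 and 314 in MaSC, 9763, 10271 and 7754 in LP) followed, with Akr1c18, a steroid dehydrogenase that inactivates progesterone (14.1, 12.6 and 64.9 in MaSC, 1501, 1639 and 946 in LP), Twist2, the protease genes Fap and Dpp4, the receptor gene Adgrd1 and Clec3b. LP replicate 3 was the lowest LP array in 11 of these 12 genes, Pi16 being the exception, as in 27 of 29 fibroblast markers. Of the defining fibroblast genes, Col1a1 was at 316, 721 and 569.8 in MaSC, 6295, 4317 and 3928 in LP and 74.1 to 128 in ML, and Col3a1 at 898, 1056 and 1122 in MaSC, 9313, 6698 and 5898 in LP and 36.0 to 54.7 in ML. Col14a1, a collagen of the same list, was higher in MaSC (6079, 6220.2 and 5469 against 1399, 2322 and 1128), a call lost without MaSC replicate 2 (adjusted p = 0.0587), LP replicate 1 (0.0633) or LP replicate 3 (0.0794). Other genes with LP replicate 3 as the lowest LP array were Cd34 (4509.6, 4183 and 2545 in LP, 163, 299.8 and 422 in MaSC, 14.9 to 20.9 in ML), Sod3 (1903, 1779.9 and 1079 in LP, 94.4, 56.4 and 23.5 in MaSC, 12.9 to 14.4 in ML) and the metalloprotease Mmp3 (3517, 1832 and 1002 in LP, 60.5, 61.0 and 109 in MaSC, 33.5 to 37.5 in ML). Without LP replicate 3, 19 fibroblast genes were again higher in LP, and 1040 genes were at least 2-fold higher in LP. With every value under 32 raised to 32, the folds of the 12 genes ran from 7.0 to 82.7 and all passed. Of the 87 genes at least 10-fold higher in LP, 85 were also higher in LP than in ML, and 60 were below 100 on each ML array. Whether this RNA lay in progenitors or in other cells of the gate was not tested.

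Mature luminal cells placed the remaining LP genes. Of the 1097 genes at least 2-fold higher in LP than in MaSC, 564 were also higher in LP than in ML, 607 were higher in ML than in MaSC, and 112 met both. Only 8 of the 87 genes beyond 10-fold were higher in ML than in MaSC, against 607 of the wider group. Among genes higher in both luminal fractions than in MaSC, the vascular growth factor gene Vegfd measured 92.2, 19.2 and 14.6 on the MaSC arrays against 989.7, 717 and 343 on the LP arrays with ML at 148 to 387 (log2 difference -4.40 ± 0.93, adjusted p = 0.00314). Htra3, a secreted protease, measured 553, 240.0 and 70.7 on the MaSC arrays against 2443, 3536 and 1763 on the LP arrays with ML at 1125 to 3074 (log2 difference -3.56 ± 0.74, adjusted p = 0.00286). Edn1, the constricting peptide endothelin 1, was at 265, 147 and 89.4 in MaSC, 1441, 1854 and 1885 in LP and 403 to 726 in ML. Aloxe3, a lipoxygenase (11.5-fold), the noncoding transcript Mirt1 (11.1-fold), the adaptor gene Blnk (9.11-fold), Anxa9 (8.97-fold), Klk11 (8.45-fold) and Pip5k1b (8.31-fold) had the same order. MaSC replicate 1 was the highest MaSC array for each of these but Aloxe3. Bmp5, Adgrv1 and Fn3k completed the 12 genes of largest difference of this kind and were dim, with folds of 2.92, 2.77 and 2.25 once values under 32 were raised to 32.

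Few genes of proliferation passed. Of 32 cell cycle genes 0 were higher in MaSC and 2 in LP, with a median log2 difference of -0.64 beside -0.07 over all genes. Mki67, which marks cycling cells, was at 328, 41.2 and 262 in MaSC and 265, 447 and 469.7 in LP (adjusted p = 0.293), and MaSC replicate 2 was far below the others. Cyclins and their inhibitors gave clearer differences. Of 16 measured 2 were higher in MaSC and 6 in LP. Ccnd2, cyclin D2, measured 4185, 4889.7 and 5591 on the MaSC arrays against 396, 329 and 156 on the LP arrays (log2 difference 4.15 ± 0.88, adjusted p = 0.00318), opposite to Ccnd1. The pocket proteins Rb1 (2.22-fold) and Rbl1 (2.03-fold), the inhibitor Cdkn1b (1.48-fold) and the cyclin Ccne2 (1.61-fold) were higher in LP. Of 22 p53 targets 2 were higher in MaSC and 4 in LP, smaller parts than over all genes (15.8% and 23.1%). Of single members, Phlda3, a repressor of Akt, was 8.45-fold higher in MaSC, and the antiproliferative gene Btg2 3.33-fold higher in LP.

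Over all genes 38.9% passed in either direction, against 13.8% of the respiratory chain genes, 29.4% of glycolysis, 36.8% of cholesterol synthesis and 30.4% of fatty acid genes. Of 29 respiratory chain genes 0 were higher in MaSC and 4 in LP, of 17 glycolysis genes 2 and 3, of 19 cholesterol synthesis genes 2 and 5 and of 23 fatty acid genes 3 and 4. Single members were far apart. Fabp3, a fatty acid carrier, measured 847, 995 and 1143 on the MaSC arrays against 84.0, 79.1 and 151 on the LP arrays (log2 difference 3.30 ± 0.34, adjusted p = 3.91e-05). Fasn, fatty acid synthase, was 2.02-fold higher in MaSC, and Scd1, which desaturates its products, 1.91-fold higher in LP. Aldoc, an aldolase, was at 3756, 2082 and 2154 in MaSC against 8225, 7367 and 8341 in LP, and the sterol reductase gene Dhcr7 at 2681, 1299.8 and 1795 against 4713, 5067 and 4771. Of 27 genes of amino acid transport and charging 7 were higher in MaSC and 2 in LP, among them the cystine carrier Slc7a11 (3.77-fold), the glutamine carrier Slc1a5 (3.13-fold) and Psph of serine synthesis (2.55-fold). Gpx2, a peroxidase for hydroperoxides, was higher in MaSC at 474, 1322 and 1202 on the MaSC arrays against 49.9, 50.9 and 74.4 on the LP arrays (log2 difference 3.99 ± 0.34, adjusted p = 1.42e-05).

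Signs of handling were compared too. Of 26 genes known to rise when tissue is dissociated, 2 were higher in MaSC and 15 in LP, with a median log2 difference of -0.33. Zfp36 was at 4584, 4876 and 3756 in MaSC and 7442, 8092 and 8393 in LP, Ier2 at 2473, 2597 and 2586 in MaSC and 3765, 3825 and 3785 in LP, and Jun at 8221, 7771 and 6491 in MaSC and 10282, 10173 and 10698 in LP. These 3 are immediate early genes, each with a mean difference under 2-fold. The sizes for the other members of the list are not given here. The interferon list had 0 and 3 of 24, with Rsad2 at 486, 413 and 239.5 against 2432, 2024 and 1352, and the unfolded protein list 1 and 5 of 22, with Creld2 1.89-fold higher in LP. Neither of these 2 lists exceeded the shares over all genes (15.8% for MaSC and 23.1% for LP). Of 12 housekeeping genes 2 were higher in MaSC and 1 in LP. Tfrc, the transferrin receptor, was 1.3-fold higher in MaSC. Zfp36, Ier2 and Jun were each higher on all LP arrays than on any MaSC array, and the part of handling in other LP genes was not tested.

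**Figure D5:**
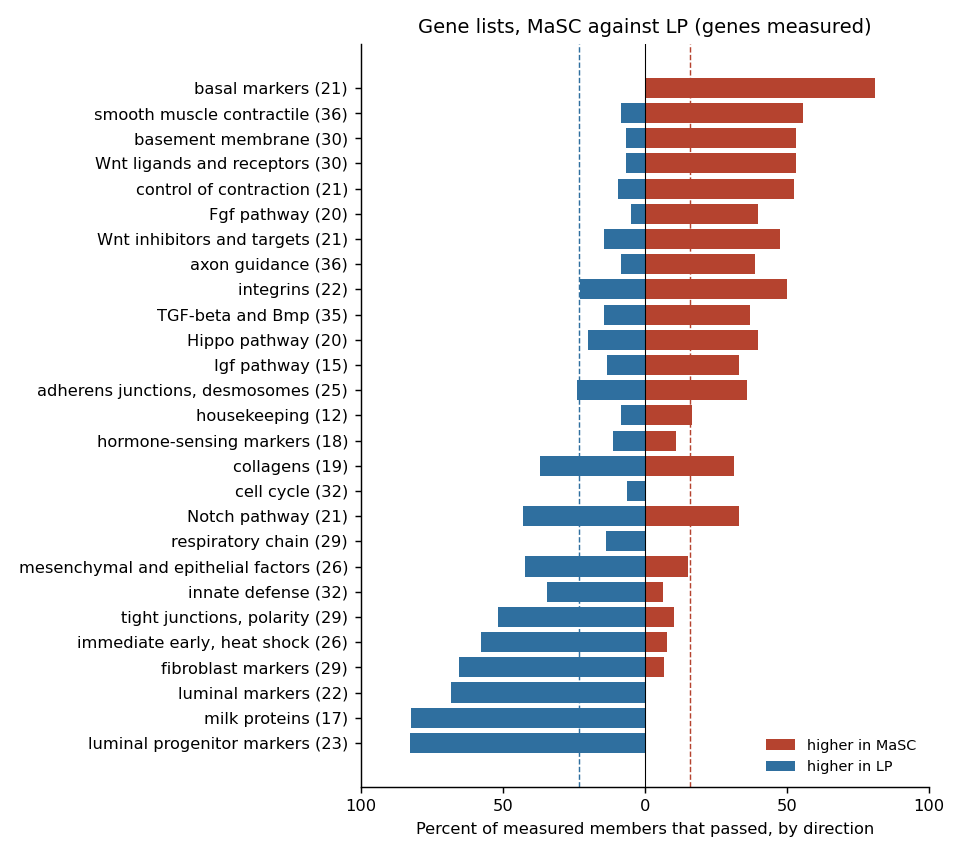
Percent of the measured members (number in brackets) of a chosen part of the 52 gene lists that were higher in MaSC (red, to the right) or in LP (blue, to the left), with dashed lines at the shares over all genes tested, 15.8% and 23.1%. Basal (17 of 21) and smooth muscle (20 of 36) genes extend toward MaSC, and fibroblast (19 of 29), LP (19 of 23) and milk genes (14 of 17) toward LP.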

How the data were processed

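The authors deposited intensities, 1 for each probe set on each array, after normalisation in dChip. Its version and settings are not stated in the labels or methods read here. The values were checked to be linear, with 267 values of 0 on the 6 arrays of MaSC and LP and array medians from 152.2 to 170.8. Intensities under 1 were set to 1 and log2 was taken. Of 45101 probe sets, 64 were controls, 34945 carried 1 gene symbol in the platform annotation, 932 several and 9160 none, and only those with 1 symbol were used. Probe sets above the array median in at least 3 of the 15 arrays were kept (22143), and the one with the highest mean log2 intensity stood for each gene, giving 12143 of 18193 genes. Where a gene had several such probe sets (5782 genes), all pointed the same way in 4213. Arrays, not reads, set the precision, with 3 per fraction.

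Linear models with 1 mean for each of the 5 populations were fitted with limma 3.58.1 (lmFit, eBayes; R 4.3.3) over the 15 arrays and tested on simulated data. Log2 differences are MaSC minus LP with standard errors (±), folds are their antilogs, tests are two-sided, and p-values were adjusted by Benjamini-Hochberg across the genes tested. A gene passed under 0.05, and "higher" is used of genes that passed. Values in threes are replicates 1, 2 and 3.

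The 52 gene lists held 1107 genes with a probe set, of which 966 were measured and 141 lay under the filter. The members and lists were chosen with earlier results of these data known. Named genes are the 12 of largest difference in each direction that passed without overlap of the arrays, the 12 largest among genes also higher in ML than in MaSC, 5 per list by the moderated t statistic, the sorting markers and the transcription factors. Genes without a proper name were skipped, and not each gene is described. Of 234 genes named, 50 lay outside this rule and were chosen after their values were seen: Actg2, Aldh1a3, Axin2, Btn1a1, Cd34, Cldn1, Col14a1, Col4a1, Col4a2, Csn1s2a, Csn3, Dll1, Filip1l, Fn1, Fst, Fzd1, Hey2, Hgf, Il6, Itgb4, Itgb6, Kcnq1, Krt18, Krt8, Lalba, Lama2, Lcn2, Ldb3, Lef1, Lfng, Ltf, Mki67, Mrtfa, Myl6, Nkd2, Notch2, Notch3, Pkp2, Rbpj, Rgs2, Rspo1, Slit2, Slpi, Smoc2, Srf, Tagln, Twist1, Wnt5b, Xdh and Zeb1. Promoter windows were matched by gene symbol. The alternatives were other sets of arrays in the fit, a replicate block, other floors, scalings, filters, probe set rules and variance priors, Student's two-sample test, and leaving out each array.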

Additional observations from a re-analysis of the deposited data

How the results depend on the processing

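The number of genes passing was 4727 and ran from 3716 to 4787 when 1 array was left out and from 3209 to 5269 over the other settings. Genes higher in MaSC (1919) ran from 1547 to 1766 and genes higher in LP (2808) from 2114 to 3021 with 1 array left out, the 2-fold genes from 927 to 1011 for MaSC (1035) and from 895 to 1391 for LP (1097), and the 2-fold LP genes also above ML (564) from 477 to 598. Of the 52 lists, 18 had more members higher in MaSC than in LP, with 17 to 21 when 1 array was left out and up to 26 otherwise. With 1 array left out, list counts toward MaSC ran from 15 to 17 for basal markers, 19 to 20 for smooth muscle, 15 to 16 for basement membrane and 13 to 16 for Wnt ligands and receptors, and counts toward LP from 15 to 18 for LP markers, 11 to 17 for luminal genes, 14 to 15 for milk, 15 to 15 for tight junctions and 17 to 19 for fibroblast markers. The methods' t-test on the 6 arrays, after Benjamini-Hochberg, called 3209 genes (5269 at an unadjusted p under 0.05), with 1606 higher in LP, 681 at least 2-fold higher in LP, 10 LP markers, 5 luminal genes and 7 tight junction genes, and 50% of its calls were toward MaSC against 40.6% in the limma fit. This test also called 11 Wnt ligand and receptor genes higher in MaSC, against 16 in the main fit. It estimates the spread of each gene from 6 arrays alone, and the 6 arrays alone in limma gave 6 luminal genes. The labels do not say whether a replicate number marks 1 suspension, and the arrays were not treated as paired. Deviations of same-numbered arrays of the 3 virgin fractions correlated at -0.0114 to 0.173 (7 of 9 pairs above 0) and those of differently numbered arrays at -0.125 to 0.0786. MaSC replicates 2 and 3 correlated best with the LP array of their own number (0.0771 and 0.0578) and MaSC replicate 1 did not (-0.000514). With a replicate block in the fit of the 9 virgin wildtype arrays, 4184 genes passed (1882 toward MaSC, 2302 toward LP), with 8 luminal genes. Among single genes, none of which had passed, the sign turned for Esr1 without MaSC replicate 1 (log2 differences from -0.044 to 0.59 with 1 array left out), for Foxa1 without MaSC replicate 3 (-1.03 to 0.11) and for Stat5a without MaSC replicate 1 or 2 (-0.036 to 0.20). The largest change in single genes came with the methods' t-test, in which 33 of the 234 named genes lost their call, 28 of them higher in LP, at adjusted p from 0.0507 to 0.149: Adgrv1, Aldh1a3, Bcl11a, Btn1a1, Ccnd1, Cd14, Cdkn1b, Cldn4, Cldn7, Csn3, Ehf, Elf3, Elf5, Fabp4, Fgfr2, Htra3, Igf1, Itga3, Itgb3, Itgb4, Kit, Krt18, Ldb3, Notch3, Ocln, Pip5k1b, Pkp2, Rbl1, Scd1, Sfrp5, St14, Stat5b and Wnt4. Of these, Wnt4 (0.141) also missed with the 6 arrays alone in limma (0.0694) and under the replicate block (0.0537), as did Fabp4 (0.0557 and 0.0634), and Notch3 with the 6 arrays alone (0.0747). Lcn2 passed in the methods' t-test (0.0243) and under a trended robust prior (0.0427). Cd74 also passed without MaSC replicate 1 (0.0455) or LP replicate 2 (0.044). The causes of these changes were not tested. Scalings moved the median of all genes (-0.07) by less than 0.1.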
